A study of Homo sapiens with 6 samples.

Results

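The S100 genes encode a family of small calcium-binding proteins, and 10 of them were followed here through 6 RNA-sequencing libraries of pancreatic ductal adenocarcinoma cells. The members were S100P, S100A2, S100A4, S100A6, S100A9, S100A10, S100A11, S100A13, S100A14 and S100A16, which are 10 of the 53826 entries listed in each library. They were selected on the TPM values of S100P, which was strongly higher in all 4 treated libraries, so the S100P values below only describe what chose the genes. The question was whether the other 9 members moved with it. PK-1 and Panc-1 are established human pancreatic ductal adenocarcinoma cell lines. Each line was sequenced as an untreated or vehicle control, which the labels call only control, after RARγi-1 (LY2955303) and after RARγi-2 (MM11253), both for 24 h. Both compounds are antagonists of the retinoic acid receptor RARγ, a nuclear receptor that binds DNA and is controlled by retinoic acid, and they differ in structure. The doses used for sequencing are not given in the sources used here, and the treatment entry of both RARγi-2 libraries names RARγi-1, so these libraries were assigned by their titles. There was 1 library per condition, so no difference below could be tested against replicates, and a value is a property of that library.

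S100 proteins have a pair of EF-hand loops that bind calcium, usually work as dimers, and on binding calcium expose a surface that takes up partner proteins. Inside cells these partners include annexins, ezrin, non-muscle myosin and p53, and some S100 proteins also leave the cell and act on receptors such as RAGE. S100P is best known from pancreatic cancer, where it is scarce in normal ducts and abundant in tumour cells, and S100A2, S100A4, S100A6, S100A10 and S100A11 have all been studied as markers of this tumour. All members but S100P lie together on chromosome 1, next to the epidermal differentiation genes, whereas S100P stands alone on chromosome 4.

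In RefSeq (GRCh38.p14), S100P spans bases 6693878 to 6697170 of chromosome 4 on the plus strand, and S100A4 spans bases 153543621 to 153545806 of chromosome 1 on the minus strand. The 250 bases upstream of these genes are shown because S100P had the largest increase and S100A4 the largest decrease in any comparison among the members. Each is written 5′ to 3′ on the strand of its gene, with the TATA box (TATAAA) and the retinoic acid receptor half-site (AGGTCA) in capitals.
S100P, chr4:6693628-6693877, plus strand: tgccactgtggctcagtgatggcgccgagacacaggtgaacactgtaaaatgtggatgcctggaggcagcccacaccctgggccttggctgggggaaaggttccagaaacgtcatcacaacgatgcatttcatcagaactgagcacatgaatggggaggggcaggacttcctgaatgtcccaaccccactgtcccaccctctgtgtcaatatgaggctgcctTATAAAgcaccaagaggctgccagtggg
S100A4, chr1:153545807-153546056, minus strand: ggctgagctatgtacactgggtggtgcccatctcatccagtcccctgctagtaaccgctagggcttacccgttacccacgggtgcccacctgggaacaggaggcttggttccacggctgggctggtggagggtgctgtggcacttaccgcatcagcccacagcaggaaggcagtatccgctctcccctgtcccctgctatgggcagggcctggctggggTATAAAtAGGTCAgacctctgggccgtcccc

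Both upstream regions held TATAAA at nearly the same place, starting 28 bases before the start site in S100P and 31 bases before it in S100A4. In S100A4 the half-site AGGTCA started at base -24, immediately downstream of the TATA box, and S100P held none. Of 35116 RefSeq windows of 250 bases before to 50 bases after a start site, 13.8% held AGGTCA on either strand and 11.5% held TATAAA. The TATA box was added to the search after these sequences had been read. Among the 16 windows of the expressed S100 genes, AGGTCA was found only in that of S100A4, whereas TATAAA was also found in windows of S100A9 and S100A13. The other motifs searched on both strands were the AP-1 site TGAGTCA, the antioxidant response element TGACNNNGC, the cAMP response element TGACGTCA, the CCAAT/ATF element TGATGCAA, the E-box CACGTG, the glucocorticoid half-site TGTTCT, the SMAD palindrome GTCTAGAC and the direct repeat of the half-site spaced by 5 bases. The AP-1 site lay at base -52 of S100A2 and base -225 of S100A3, against 4.95% of all windows. The antioxidant response element was matched in S100A13, S100A14 and S100A16, against 13.3% of all windows, and the glucocorticoid half-site in S100A3, against 14.8%. S100P held none of these motifs other than the TATA box, and the remaining motifs were matched in no S100 window. A match of letters is not evidence that a factor bound there.

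Levels are given in TPM, the transcript abundance unit of the deposited files and a measure per transcript length, with values under 1 TPM listed at a floor of 1 TPM. In each library 13149 to 13652 entries were above that floor. Differences are log2 of (TPM + 1) in the treated library minus the same in the control library of that line, which understates changes of genes at a few TPM, and a difference beyond 1 is more than 2-fold. As the only available measure of scatter, the 2 treated libraries of a line differed over 12412 entries of at least 5 TPM by a robust SD of 0.39 in PK-1, against 0.30 in Panc-1 on this scale, real differences between the inhibitors included. The epithelial marker genes EPCAM, KRT8, KRT18 and KRT19 were above the floor in every library, and CDH1 (E-cadherin) was at the floor throughout Panc-1. The endothelial genes PECAM1, VWF and CDH5 were at the floor in all 6. Of 7 leukocyte markers, PTPRC, CD3E and CSF1R were at the floor in all 6, whereas CD68 and LYZ were above it in all 6. The leukocyte markers together were at 24.0 to 101 TPM in PK-1 and at 244 to 282 TPM in Panc-1, mostly CD68. Of 5 fibroblast markers only COL1A1 was above the floor. It went from 3.21 TPM in the control up to 13.4 TPM in PK-1. In Panc-1 it went from 52.4 TPM in the control down to 2.10 TPM. The 5 epithelial markers together were at 11209.8 to 16834 TPM in PK-1 libraries and at 1482 to 8413 TPM in those of Panc-1, highest in each control. That sum is mostly KRT8, KRT18 and KRT19, and CDH1 went the other way in PK-1, at 170.1, 270.2 and 385 TPM. The part of these markers in the values below was not tested. KRT13, which the study used as a readout of RARγ blockade, was at 3457 TPM in the PK-1 control, 655 with RARγi-1 and 358 with RARγi-2, while every Panc-1 library listed it at the floor. FABP5, the other readout, was at 516, 170.3 and 149 TPM in PK-1 and at 234, 179.8 and 166 TPM in Panc-1, in the same order.

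S100P was at 12.9 TPM in the PK-1 control, 598 TPM after RARγi-1 and 1202 TPM after RARγi-2. In Panc-1 it was at 1.75 TPM in the control, 20.7 TPM after RARγi-1 and 44.3 TPM after RARγi-2. The lowest level was thus in each control and the highest in each RARγi-2 library. The log2 differences were 5.43 and 6.44 in PK-1, against 2.98 and 4.04 in Panc-1, or 46.4-fold, 93.2-fold, 11.8-fold and 25.3-fold as plain ratios of TPM. Among the 12412 entries, S100P had the highest difference of all in both PK-1 comparisons, and it was 25th and 17th in Panc-1. Ordered by level within a library, it moved from place 7660 in the PK-1 control to places 229 and 123, and from place 12329 in the Panc-1 control to places 6202 and 3499. The inhibitors stood in the same order in both lines, with RARγi-2 above RARγi-1 by 1.0 on the log2 scale in PK-1, against 1.06 in Panc-1. Both gaps exceeded the scatter of their line, but the doses are unknown, so the values can only be set side by side. In RNA from whole cultures, a change in every cell and a change in the share of cells that express a gene cannot be told apart.

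**Figure D1:**
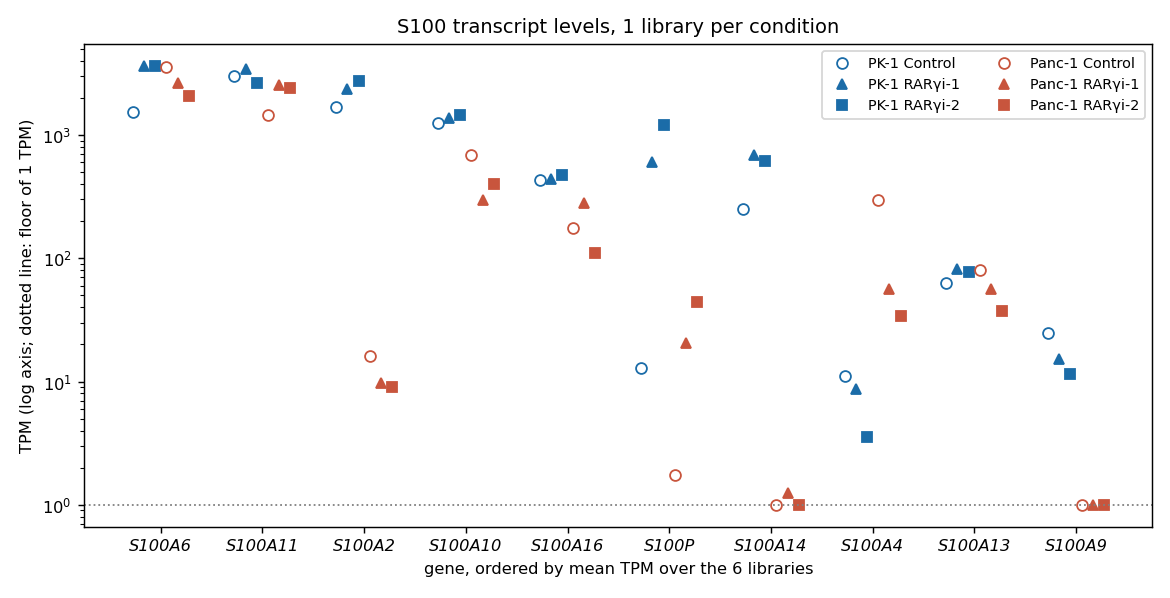
TPM on a log axis of the 10 S100 members in the 6 libraries, ordered by mean level, with PK-1 in blue, Panc-1 in red, open circles for control, triangles for RARγi-1 and squares for RARγi-2. S100P goes from 12.9 to 1202 TPM in PK-1 while S100A4 goes from 295 to 34.2 TPM in Panc-1, and S100A14 and S100A9 lie at or next to the floor in Panc-1.

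Before treatment the lines carried different sets of S100 transcripts. In the PK-1 control the order by level was S100A11, S100A2, S100A6, S100A10, S100A16, S100A14, S100A13, S100A9, S100P and S100A4, from 3023 TPM down to 11.1 TPM. S100A2 and S100A6, S100A6 and S100A10, and S100P and S100A4 lay closer to each other than the scatter. In the Panc-1 control the order was S100A6, S100A11, S100A10, S100A4, S100A16, S100A13, S100A2 and S100P, from 3583 TPM down to 1.75 TPM, and all neighbours were further apart than the scatter. That scatter compares the same gene between treated libraries, so it does not measure how certain an order of different genes is. S100A14 was at 252 TPM in the PK-1 control and at the floor in Panc-1, and S100A2 at 1683 against 16.1 TPM. S100A4 was the opposite, at 11.1 TPM in PK-1, against 295 TPM in Panc-1. The mesenchymal gene VIM (vimentin) was likewise at 41.7 TPM in the PK-1 control and 6291 TPM in that of Panc-1.

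The other 9 members did not follow S100P as a group. More than 2-fold above control were 2 of the 9 in PK-1 with each inhibitor and 0 of the 9 in Panc-1 with each inhibitor, where 9.91% (PK-1, RARγi-1), 12.9% (PK-1, RARγi-2), 7.86% (Panc-1, RARγi-1) and 9.02% (Panc-1, RARγi-2) of all 12412 entries were. More than 2-fold below control were 0 and 2 of the 9 in PK-1, against 2 and 2 of the 9 in Panc-1, where 5.20%, 13.5%, 6.51% and 12% of all entries were, in the same order. These are counts of at most 2 genes, too few to set the members apart from such shares. The median difference of the 9 members was 0.18 and 0.22 in PK-1, against -0.43 and -0.75 in Panc-1, beside 0.13, 0.00, 0.05 and 0.00 over all entries. S100P was the only member more than 2-fold higher in all 4 comparisons, as were 2.71% of all entries, and no member was more than 2-fold lower in all 4, as were 2.19%.

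**Figure D2:**
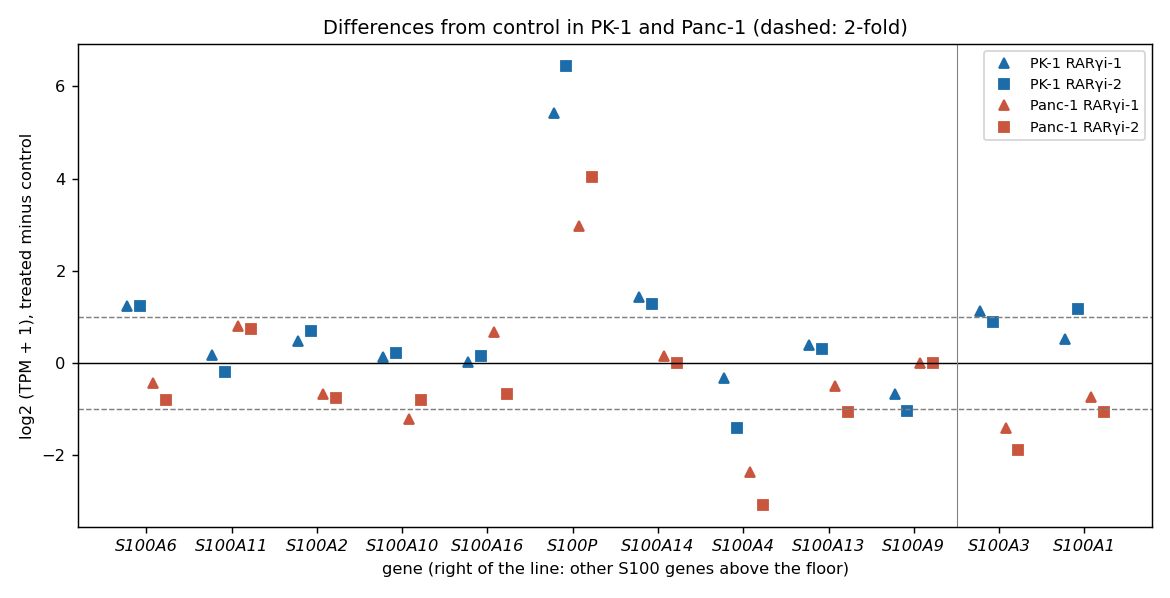
Log2 differences in (TPM + 1) from control for the 10 members and, right of the vertical line, S100A3 and S100A1, with PK-1 in blue, Panc-1 in red, triangles for RARγi-1, squares for RARγi-2 and dashed lines at 2-fold. S100P lies between 2.98 and 6.44, S100A4 reaches -3.07 in Panc-1, and S100A6, S100A2, S100A3 and S100A1 lie above 0 in PK-1 and below 0 in Panc-1.

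S100A4 (metastasin) binds non-muscle myosin and is known for its link to cell motility. It was at 295 TPM in the Panc-1 control, 56.7 TPM after RARγi-1 and 34.2 TPM after RARγi-2. In PK-1 it was at 11.1, 8.67 and 3.54 TPM in the same order. It stood below control in all 4 comparisons, by -2.36 and -3.07 in Panc-1 and by -0.32 and -1.41 in PK-1, of which the first PK-1 value lay within the scatter. It was the lowest of the members in both Panc-1 comparisons and in PK-1 with RARγi-2, while S100A9 was lower in PK-1 with RARγi-1. In each line RARγi-2 gave the lower level, the mirror image of the order seen for S100P, with gaps between the inhibitors of -1.09 in PK-1, against -0.71 in Panc-1. Its partner MYH9, the heavy chain of non-muscle myosin, was at 359, 168 and 136 TPM in Panc-1, and the ratio of S100A4 to MYH9 transcripts was 0.821, 0.337 and 0.251. VIM was lower in treated Panc-1 as well, at 4049 and 3962 TPM, but higher in treated PK-1, at 92.1 and 140 TPM. Of the other mesenchymal markers, CDH2 was at 6.36, 3.55 and 2.63 TPM and ZEB1 at 8.65, 14.5 and 10.9 TPM in Panc-1, so ZEB1 was not lower with treatment, and both were at the floor in PK-1. In RefSeq S100A4 shares 65 bases with S100A5 on the same strand, and S100A5 was at the floor in every library.

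S100A6 (calcyclin) was first found as a gene linked to cell growth and binds the calcyclin-binding protein CACYBP. It was at 1533 TPM in the PK-1 control and at 3602 and 3623 TPM after RARγi-1 and RARγi-2, which put it first in both treated libraries, with S100A11 closer to it than the scatter after RARγi-1. In Panc-1 it was the most abundant in the control, at 3583 TPM, and stood at 2657 and 2056 TPM with the inhibitors. The differences were 1.23 and 1.24 in PK-1, against -0.43 and -0.80 in Panc-1, all larger than the scatter of the line, so the level was above control in one line and below it in the other. Treated PK-1 came to the level of untreated Panc-1. An unnamed antisense RNA is annotated over the whole of S100A6, and whether counting used strand is not given in the sources used here.

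S100A14 is an epithelial member, and S100A16 is encoded by the gene next to it. S100A14 was at 252, 681 and 617 TPM in PK-1 in the order control, RARγi-1, RARγi-2, differences of 1.43 and 1.29. In Panc-1 it was listed at the floor in the control and with RARγi-2, and at 1.24 TPM after RARγi-1, so it gave no usable difference. S100A16, its neighbour, was at 427, 437 and 475 TPM in PK-1 close to control, with differences of 0.03 and 0.15, the first of which became -0.07 when the libraries were rescaled. In Panc-1 S100A16 was at 175, 279 and 109.5 TPM, and it was the member that most separated the inhibitors there, 0.67 above control with RARγi-1 and -0.67 with RARγi-2.

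S100A2 is a nuclear member of squamous and other stratified epithelia that binds p53. It was among the most abundant transcripts of PK-1, at 1683, 2335 and 2727 TPM, and scarce in Panc-1, at 16.1, 9.73 and 9.11 TPM. The differences of 0.47 and 0.70 in PK-1, against -0.67 and -0.75 in Panc-1 exceeded the scatter but not 2-fold. When the libraries were rescaled, the first of these became 0.37, just under the PK-1 scatter of 0.39. S100A9 (calgranulin B) is a protein of neutrophils and monocytes that is also made by stressed epithelia, normally as a dimer with S100A8. It was at 24.7, 15.3 and 11.6 TPM in PK-1, differences of -0.66 and -1.03, and at the floor throughout Panc-1. S100A8 was at the floor in all 6 libraries. Of 7 leukocyte markers, LYZ and CD68 alone were above the floor in PK-1, and their summed level there was 24.0 to 101 TPM, highest after RARγi-1, and their part in the S100A9 values was not tested.

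S100A10 (p11) and S100A11 (calgizzarin) bind annexins, proteins that attach to membranes in the presence of calcium. S100A10, the partner of annexin A2 at the cell surface, was at 1243, 1359 and 1452 TPM in PK-1, differences of 0.13 and 0.22 that lay within the scatter. In Panc-1 it was at 691, 295 and 396 TPM, so both treated libraries were below control, by -1.22 and -0.80. ANXA2 itself was at 2526, 1532 and 1616 TPM in Panc-1, and the ratio of S100A10 to ANXA2 transcripts was 0.273 in the control and 0.193 and 0.245 with the inhibitors. S100A11 was at 3023, 3427 and 2657 TPM in PK-1, again within the scatter, with differences of 0.18 and -0.19. In Panc-1 it was the only one of the 9 to stand above control with both inhibitors, at 1445, 2534 and 2399 TPM and differences of 0.81 and 0.73. ANXA1, with which S100A11 pairs, was at 692, 1776 and 3393 TPM in PK-1, which took the ratio of S100A11 to ANXA1 transcripts from 4.37 in the control to 1.93 and 0.783. In Panc-1 this ratio was 7.54 in the control, 12.3 with RARγi-1 and 5.76 with RARγi-2.

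S100A13 helps release fibroblast growth factor 1 from cells by a route that does not use the secretory pathway. It was at 62.5, 82.2 and 76.9 TPM in PK-1, differences of 0.39 and 0.30 at or within the scatter. In Panc-1 it was at 79.5, 56.4 and 37.6 TPM, differences of -0.49 and -1.06. The span of the gene contains all 3606 bases of S100A1 on the opposite strand. Whether their exons overlap was not examined, so how far counting without strand would mix their reads is unknown.

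Of the 11 other S100 genes looked for, 9 were at the floor in all 6 libraries, namely S100A5, S100A7, S100A7A, S100A7L2, S100A8, S100A12, S100B, S100G and S100Z. S100A3, known from hair follicles, was at 15.8, 36.1 and 30.3 TPM in PK-1 and at 30.7, 11 and 7.54 TPM in Panc-1. Its differences were 1.14 and 0.89 in PK-1, against -1.41 and -1.89 in Panc-1. An antisense RNA covers the whole of this gene, too. S100A1, a regulator of calcium handling in muscle, was at 1.15, 2.09 and 3.85 TPM in PK-1 and at 4.73, 2.42 and 1.75 TPM in Panc-1, below 5 TPM throughout.

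Several members were above control in PK-1 and below it in Panc-1. With RARγi-1 these were 4 members, S100A2, S100A6, S100A10 and S100A13, and with RARγi-2 they were 5, with S100A16 added. Any such pattern, whatever its size, was shown by 14.2% of all entries with RARγi-1 and 12.1% with RARγi-2. Counting either direction, 4 of the 10 members and 12.4% of all entries stood on opposite sides of control in the lines with both inhibitors. The PK-1 differences of S100A10, and that of S100A16 with RARγi-2, lay within the scatter, and those of S100A13 at or within it. The comparisons within a line share a control library, so the agreement of the inhibitors is not a repeat of the observation. Whether the lines differed could not be tested with 1 library each.

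Because a few members are abundant, the family was also summed. The 12 S100 genes above the floor came to 8288 TPM in the PK-1 control, 12584 TPM after RARγi-1 and 12879 TPM after RARγi-2, or 0.829%, 1.26% and 1.29% of all TPM. In Panc-1 the sums were 6322, 5924 and 5095 TPM, or 0.632%, 0.592% and 0.509%. The treated PK-1 sums were thus 1.52 and 1.55 times that of the control, and still 1.45 and 1.41 times without S100P, whereas those of Panc-1 were 0.937 and 0.806 times their control. S100P made up 0.156% of the family's transcripts in the PK-1 control and 4.75% and 9.33% after the inhibitors. It supplied 13.6% and 25.9% of the gain in the PK-1 sum, and S100A6 and S100A2 were the other large contributors. In Panc-1 the sum shifted from S100A6, with 56.7% in the control and 44.9% and 40.4% in the treated libraries, to S100A11, with 22.9%, 42.8% and 47.1%.

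**Figure D3:**
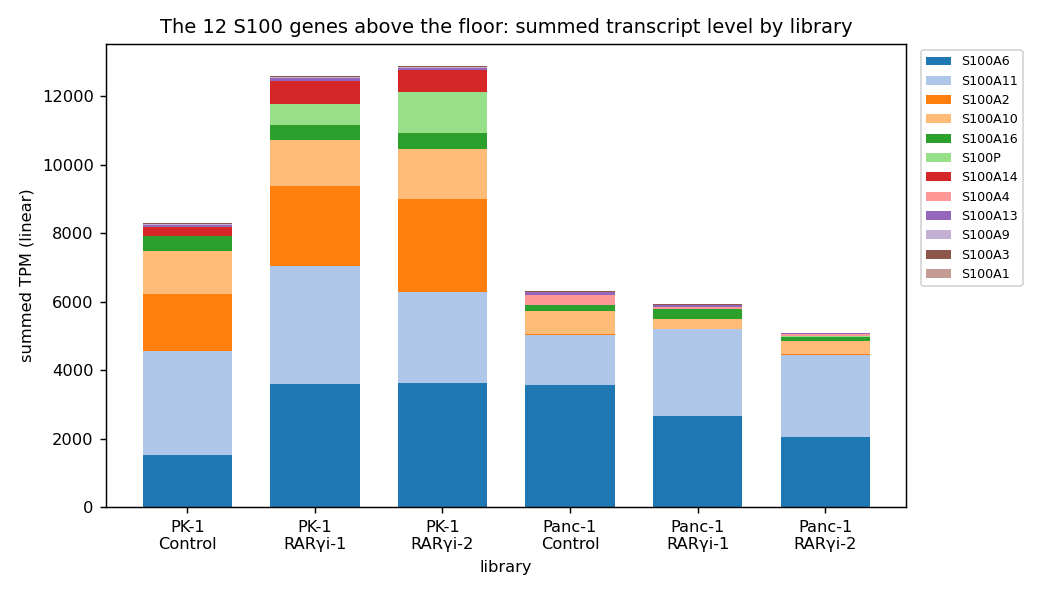
Summed TPM on a linear axis of the 12 S100 genes above the floor in each library, stacked by gene. The PK-1 bar grows from 8288 TPM in the control to 12584 and 12879 TPM in the treated libraries, the Panc-1 bar goes from 6322 to 5924 and 5095 TPM, and S100P is visible as a band in treated PK-1 alone.

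The genes of chromosome 1 around the S100 members were also compared in their order. From S100A10 to CHTOP the RefSeq annotation holds 95 genes, of which 89 were listed and 26 were above the floor in at least 1 library, 11 of them S100 genes. In PK-1, SPRR1B, a protein of the cornified envelope that covers stratified epithelium, was at 183, 789 and 794 TPM in the order control, RARγi-1, RARγi-2. IVL (involucrin), which belongs to the same envelope and lies close by, went the other way, at 25.6, 7.48 and 3.46 TPM. SPRR1A was at 4.30, 14.6 and 17.1 TPM and SPRR3 at 15.1, 13.8 and 7.30 TPM. Of 5 epidermal complex genes with at least 5 TPM anywhere, 3 were more than 2-fold higher and 1 more than 2-fold lower in PK-1 with either inhibitor (one of the higher ones, SPRR2D, with its control at the floor), beside 9.91% and 12.9% of all entries higher and 5.20% and 13.5% lower, and in Panc-1 none exceeded 1.31 TPM. Of the higher ones, SPRR1A and SPRR2D reached 5 TPM only in treated PK-1 libraries. The filter thus favoured their being counted as higher, and no conclusion is drawn from that count. S100A16 and S100A14, which are direct neighbours, differed from control by 0.03 and 1.43 in PK-1 with RARγi-1. Some other neighbours lay on the same side of control and some did not. S100A6, S100A4, S100A3 and S100A2 were all below control in Panc-1 with both inhibitors. In PK-1, S100A4 was below control, whereas S100A6, S100A3 and S100A2 were above it. S100A10 and S100A11, at the start of this stretch, differed by -1.22 and -0.80 against 0.81 and 0.73 in Panc-1. The adjacent S100A2 and S100A16 differed there by -0.67 and 0.67 with RARγi-1. S100A13 and S100A1, which overlap, had the same sign as each other in all 4 comparisons.

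**Figure D4:**
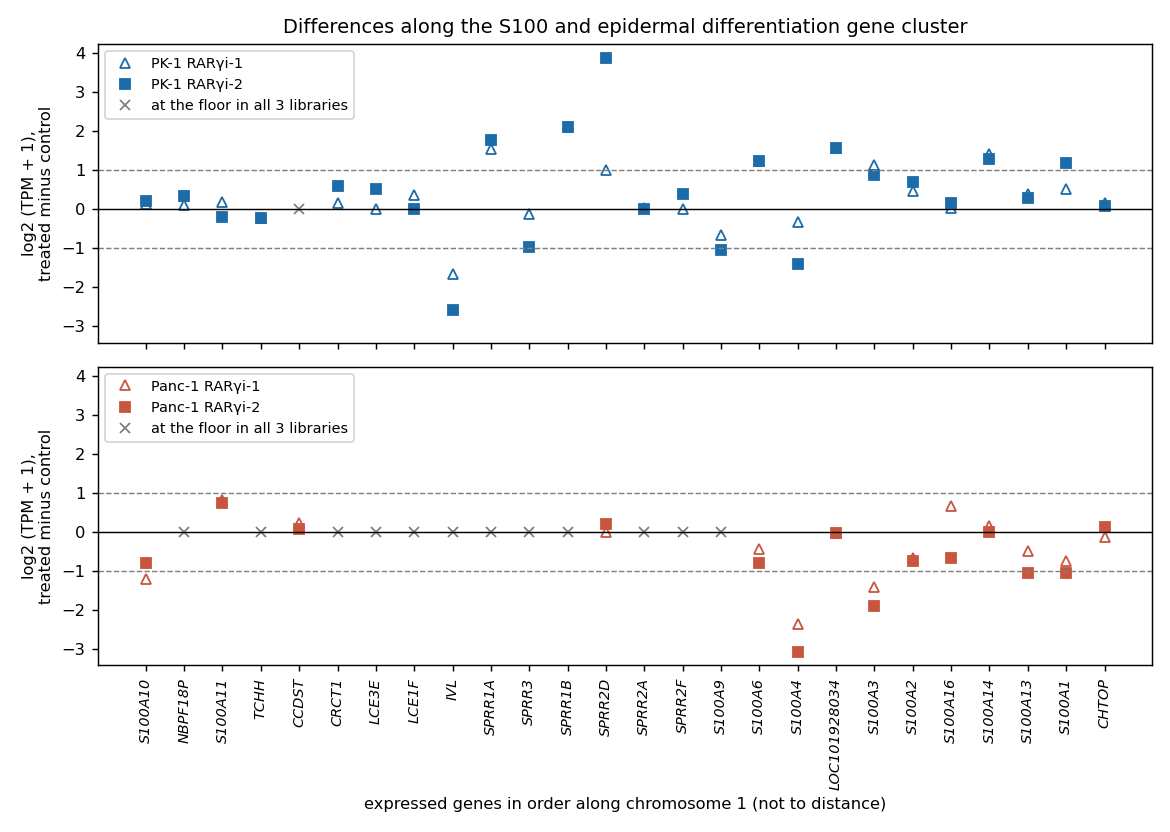
Log2 differences in (TPM + 1) from control for the 26 expressed genes from S100A10 to CHTOP, in their order along chromosome 1 and not to distance, with PK-1 in the upper and Panc-1 in the lower panel, open triangles for RARγi-1, filled squares for RARγi-2, crosses for genes at the floor in all libraries of a line and dashed lines at 2-fold. S100A6 lies at 1.23 and 1.24 in PK-1 beside S100A4 at -0.32 and -1.41, and the epidermal genes between S100A11 and S100A9 lie at or near the floor in Panc-1.

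Partners and relatives of the S100 proteins were examined through lists of genes, whose counts are read beside the shares of all 12412 entries, 9.91%, 12.9%, 7.86% and 9.02% more than 2-fold higher and 5.20%, 13.5%, 6.51% and 12% more than 2-fold lower in PK-1 with RARγi-1 and RARγi-2 and then Panc-1 with each. Of 12 annexins with at least 5 TPM anywhere, the more than 2-fold higher ones were 1 and 3 in PK-1, against 0 and 1 in Panc-1, and the lower ones 1, 1, 0 and 1. ANXA1, an inhibitor of inflammation, accounted for one of the higher ones wherever there were any, with differences of 1.36, 2.29 and 1.12, and its difference in Panc-1 with RARγi-1 was 0.10. ANXA5 was 0.54 and 1.02 above control in PK-1, and ANXA7 0.55 and 0.56. Of 16 S100 partners and receptors, 2 and 1 were more than 2-fold higher in PK-1, against 0 and 0 in Panc-1, and 1, 1, 3 and 6 were more than 2-fold lower. Among the higher ones, AGER (with RARγi-1) and TRPV6 (with RARγi-2) reached 5 TPM only in the library where each was counted, so the filter favoured these calls. TRPV6 was also among the lower ones in Panc-1 with both inhibitors, from 3.14 TPM in the control to the floor. None of these counts was tested. AHNAK, a giant scaffold protein held at the membrane by the S100A10 and annexin A2 complex and named here after its values were seen, was at 224, 46.3 and 47.0 TPM in Panc-1, differences of -2.25 and -2.23, and at 169, 251 and 205 TPM in PK-1. PLAU (urokinase) was at 578, 678 and 139 TPM in Panc-1 and at 315, 754 and 219 TPM in PK-1. BSG (basigin, a receptor of S100A9) was at 576, 391 and 302 TPM in Panc-1 and at 394, 396 and 397 TPM in PK-1. EZR (ezrin, a partner of S100P) was at 293, 293 and 281 TPM in PK-1, so the ratio of S100P to EZR transcripts of 0.0441, 2.04 and 4.28 moved with S100P alone.

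Other EF-hand proteins served to show calcium binders outside the family. Of 19 such genes with at least 5 TPM anywhere, 1, 1, 1 and 3 were more than 2-fold higher and 0, 2, 1 and 2 more than 2-fold lower in the order PK-1 with RARγi-1 and RARγi-2 and Panc-1 with RARγi-1 and RARγi-2, beside shares of all entries of 7.86% to 12.9% higher and 5.20% to 13.5% lower. NUCB2 (nucleobindin 2, a Golgi calcium binder and the precursor of nesfatin) was more than 2-fold higher in all 4, at 60.7, 247 and 395 TPM in PK-1 and at 53.2, 181 and 284 TPM in Panc-1. CALM2, one of the calmodulin genes, stayed within 2-fold, with differences from 0.34 to 0.54, whereas CALM3, which encodes the same protein and was named after its values were seen, differed by -0.62 and -1.11 in PK-1 and by -0.86 and -1.30 in Panc-1. S100P was therefore not the only EF-hand gene that was higher in every treated library.

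The entries with the profile most like S100P were sought among 10628 entries of at least 10 TPM in a library, by the root mean square difference over the 6 libraries between profiles of log2 (TPM + 1), each centred on its own mean. The nearest was MMP1, the interstitial collagenase, with a difference of 1.0, followed by KRT16, a keratin of activated stratified epithelium (1.0), HID1, a trafficking protein of the Golgi (1.02), the long non-coding RNA LUCAT1 (1.02) and the pseudogene NMRAL2P (1.07). MMP1 was at 37.7, 362 and 1179.8 TPM in PK-1 and at 11.4, 55.9 and 123 TPM in Panc-1. HID1 was at 12.4, 159 and 305 TPM in PK-1 and at 2.83, 22.3 and 51.6 TPM in Panc-1. All 5 were higher in the order control, RARγi-1, RARγi-2 in each line, with Pearson r over the 6 libraries from 0.95 to 1.0, a description over libraries that share cell lines and controls. The 5 were picked for their likeness to S100P in these same libraries, so the shared order and high r follow from that choice. KRT16 and LUCAT1 also reached 10 TPM only in treated libraries. In the Panc-1 control KRT16 and NMRAL2P were at the floor and LUCAT1 was at 1.13 TPM, so the floor limits their profiles in that line. The other family members were far from S100P by this measure, from S100A9 at place 1518 (r of 0.51), although S100A9 was below control in treated PK-1, to S100A4 at place 10575 (r of -0.85). By r alone S100A14 (0.72), S100A11 (0.67) and S100A2 (0.65) were closer than S100A9.

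**Figure D5:**
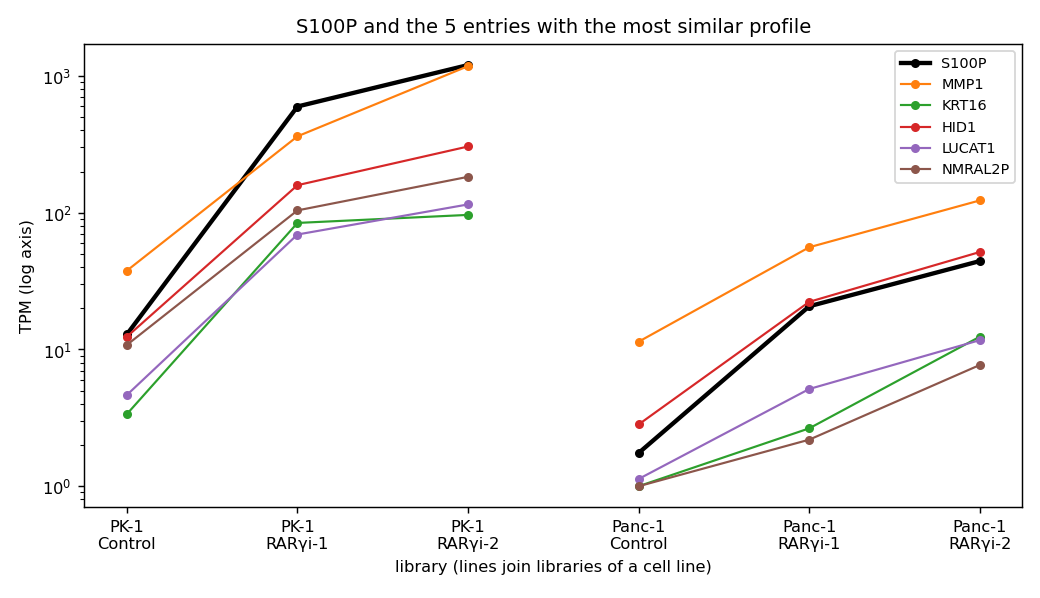
TPM on a log axis of S100P (thick black) and the 5 entries with the smallest root mean square difference from its profile, with lines joining the libraries of a cell line. All 6 are lowest in the control and highest with RARγi-2 in each line, and S100P spans the widest range, from 12.9 to 1202 TPM in PK-1.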

How the data were processed

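RNA of 6 samples (TruSeq Stranded mRNA libraries) was sequenced, 1 library per condition. The authors deposited log2 TPM for 53826 entries per library, with values under 1 TPM raised to 1. The submitters' processing notes name hg38. The aligner, counter, annotation, use of strand and read depth are not given in the sources used here, and TPM keeps no depth, so no counting error could be computed.

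Values were returned to TPM and compared as log2(TPM + 1). A repeated symbol was represented by its row with the highest mean. Calls were more than 2-fold, over the 12412 entries that reached 5 TPM in any library, with no p-value. Scatter was the median absolute deviation, scaled by 1.4826, of differences between the treated libraries of a line. Named were all members, other S100 genes above the floor, the 5 entries nearest to S100P, and in each list the genes past 2-fold in all 4 comparisons with up to 4 of the highest mean, besides KRT13 and FABP5. EZR, AGER, TRPV6, SPRR2D, CALM3 and AHNAK were named outside that rule. Members and lists were chosen with earlier results of these data known. Motifs were matched exactly in RefSeq promoter windows. No protein sequences were used. Alternatives were the pseudocount, the filter, the fold, rescaling by median ratios and summed rows. The fold change procedure was run on simulated data with planted changes well past the 2-fold threshold in well-expressed entries (Python 3.11.15, numpy 2.4.6, pandas 2.3.3). The simulated scatter was below that of PK-1, and changes near the threshold or genes near the floor were not covered.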

Additional observations from a re-analysis of the deposited data

Results flagged for a closer look

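Of the 12 S100 genes above the floor, 6 stood on opposite sides of control in the cell lines with both inhibitors, as did 12.4% of the 12412 entries of at least 5 TPM anywhere. Each is given by its log2 differences with RARγi-1 and RARγi-2. S100A2 differed by 0.47 and 0.70 in PK-1 and by -0.67 and -0.75 in Panc-1. S100A6 differed by 1.23 and 1.24 in PK-1 and by -0.43 and -0.80 in Panc-1. S100A10 differed by 0.13 and 0.22 in PK-1 and by -1.22 and -0.80 in Panc-1. S100A13 differed by 0.39 and 0.30 in PK-1 and by -0.49 and -1.06 in Panc-1. S100A1, which stayed under 5 TPM, differed by 0.53 and 1.18 in PK-1 and by -0.74 and -1.06 in Panc-1. S100A3 differed by 1.14 and 0.89 in PK-1 and by -1.41 and -1.89 in Panc-1. The difference between the lines was not tested, since each condition had 1 library and both inhibitors of a line share its control. The PK-1 values of S100A10 lay within the scatter of 0.39, and those of S100A13 at or within it.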

How the results depend on the processing

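No paired analysis was possible because each condition had 1 library and the labels give no replicate numbers. For the same reason no replicate could be left out. S100P was the highest member in all 4 comparisons under every setting tried. No difference of a called gene changed sign. Counts of members past the threshold, S100P included, moved as follows. With a threshold of 3-fold, the number higher went from 3 to 1 in PK-1 with each inhibitor, and the number lower went from 2 to 0 in PK-1 with RARγi-2 and from 2 to 1 in Panc-1 with each inhibitor. With a threshold of 1.5-fold, the number higher in Panc-1 went from 1 to 3 with RARγi-1 and from 1 to 2 with RARγi-2, and the number lower went from 0 to 1 in PK-1 with RARγi-1 and from 2 to 6 in Panc-1 with RARγi-2. A pseudocount of 5 TPM took the number lower from 2 to 0 in PK-1 with RARγi-2 and from 2 to 1 in Panc-1 with RARγi-2. Rescaling by median ratios, which shifted all differences by -0.11, 0.05, -0.09 and 0.00 in the 4 comparisons, took the number lower in PK-1 with RARγi-2 from 2 to 1. The other 108 values of counts, medians and sums stayed within their limits. Of values for single genes and shares of all entries, 50 moved and 442 did not. The pseudocount moved the S100P differences in Panc-1 most plainly, from 2.98 to 1.93 (5 TPM) or 3.56 (none) with RARγi-1 and from 4.04 to 2.87 or 4.66 with RARγi-2. Among the expressed S100 genes, the floor limits S100P, S100A9 and S100A14 in Panc-1 and S100A1 in both lines.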
